A study of Homo sapiens with 4 samples.

Results

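Box H/ACA small nucleolar RNAs and Cajal body small RNAs were compared between differentiated and undifferentiated SH-SY5Y cells, a human neuroblastoma line. They were taken as every row of the deposited expression table whose name starts with SNORA or SCARNA. The table has 23576 rows, of which 129 carry such a name, and 57 of the 129 had a value above 0 in at least 1 group. Of these 57 members, 41 were SNORA and 16 were SCARNA rows, and the other 72 rows were listed at 0 in both groups. Differentiated cells were taken on day 16, after 7 days of 10 µM retinoic acid (RA) with serum and then 9 days in serum-free medium with 20 ng/mL of BDNF, the brain-derived neurotrophic factor. Undifferentiated cells were taken on day 0. Each group had 2 libraries. No label says that they were grown as separate cultures, and the q-values may then reflect only technical spread. Both groups are the same line with no altered gene named in the labels, and they differ in RA, BDNF, serum and days of culture together.

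Box H/ACA RNAs fold into a pair of hairpins with an H box between them and an ACA box near the 3′ end. Each binds dyskerin (DKC1), NOP10, NHP2 and GAR1 and guides dyskerin to the uridine that it turns into pseudouridine. SNORA RNAs work mainly on ribosomal RNA in the nucleolus. SCARNA RNAs are held in Cajal bodies, where they guide changes to the small nuclear RNAs of the spliceosome, and some of them join an H/ACA part with a box C/D part, which guides ribose methylation. In human cells most of these RNAs are cut from introns of other genes, their hosts, so their level does not have to follow that of the host's messenger RNA.

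The authors' deposited table gives 1 FPKM for each row and group, that is, a fragment level corrected for transcript length and sequencing depth. Neither the spread within a group nor the depth of a library is therefore known, and each FPKM below is the authors' group value. A call is a q-value below 0.05 in the authors' deposited table, and the standard error (SE) of a log2 fold change is the one implied by the authors' test statistic. Of 12810 rows tested by the authors, 2.43% were called higher in differentiated cells and 28% lower, 30.4% in all. The log2 fold changes are thus not centred on 0. A second test therefore set each against the median of 11169 tested rows with a mean of at least 1 FPKM, which was -0.62, and it placed 5.64% above and 4.56% below this median gene. The RNA was depleted of ribosomal RNA, fragmented and copied with tailed random primers before library molecules of 350 to 500 bp were selected.

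The cells were checked by their markers. The sympathoadrenal genes ISL1 (35.5 FPKM in differentiated and 45.2 FPKM in undifferentiated cells) and HAND2 (136 FPKM in differentiated and 205 FPKM in undifferentiated cells) were listed in both groups, and TH, for tyrosine hydroxylase, was near 0 (0.202 FPKM in differentiated and 0 FPKM in undifferentiated cells). The authors' deposited table has a lower call for 6 of 9 tested genes of that list, among them GATA2 (5.34 FPKM in differentiated and 38.5 FPKM in undifferentiated cells), DBH (11.9 FPKM in differentiated and 50.7 FPKM in undifferentiated cells) and CHGA (200 FPKM in differentiated and 435 FPKM in undifferentiated cells). Glial and Schwann cell markers summed to 3.63 FPKM in differentiated and 4.75 FPKM in undifferentiated cells, most of it S100B, with SOX10 and GFAP at 0.00602 and 0.0211 FPKM in differentiated and 0 in undifferentiated cells. Fibroblast and mesenchymal markers summed to 32.5 FPKM in differentiated and 31.4 FPKM in undifferentiated cells, led by LUM, with COL1A2 at 0 FPKM in differentiated and 0.0859 FPKM in undifferentiated cells. Among the mesenchymal genes 2 of 5 tested were called lower, DCN (1.08 FPKM in differentiated and 4.20 FPKM in undifferentiated cells) being one, and none higher. LUM (17.95 FPKM in differentiated and 12.5 FPKM in undifferentiated cells) and ACTA2 (5.19 FPKM in differentiated and 2.06 FPKM in undifferentiated cells) read higher, and both stood above the median gene (adjusted p = 0.0029 and 0.026 by the normal test on the authors' statistic). The median log2 fold change of that list was 0.07. The part of these markers in the results below was not tested. In bulk RNA, fewer cells that make an RNA and less of that RNA per cell cannot be told apart.

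Of the 57 members, 56 were tested by the authors, and 3 were called, all of them SCARNA RNAs of 266 to 330 nucleotides. SCARNA6 and SCARNA10 were higher in differentiated cells, and SCARNA12 was lower. No SNORA row was called in either direction among 41 tested in the authors' deposited table, and 0 had an unadjusted p below 0.05. Against the background, 2 of 56 were called higher where 2.43% of all tested rows were, and 1 of 56 was called lower where 28% were. The implied SE differed widely between rows. It was 0.258 to 20.4 for SCARNA rows (median 1.35) and 0.686 to 53.6 for SNORA rows (median 11.1), where the median over the 11169 rows was 0.362. Every one of the 17 SNORA rows with a fold had an SE above that median.

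The 3 called RNAs and SCARNA5, which shares a locus and a host gene with SCARNA6, are printed here because each carries both kinds of box at its ends. Sequences are GENCODE release 29 transcripts on GRCh38, 5′ to 3′. Of SCARNA10 both ends are shown. Capitals mark a C box of the letters NTGATGA found within the first 40 bases and a D box of the letters CTGA found within the last 12, searched on the given strand.
SCARNA6: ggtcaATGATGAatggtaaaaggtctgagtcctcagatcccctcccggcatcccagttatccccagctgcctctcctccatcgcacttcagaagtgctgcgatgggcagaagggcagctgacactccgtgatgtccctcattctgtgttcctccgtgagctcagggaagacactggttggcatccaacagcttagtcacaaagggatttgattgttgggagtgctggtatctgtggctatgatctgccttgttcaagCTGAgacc
SCARNA5: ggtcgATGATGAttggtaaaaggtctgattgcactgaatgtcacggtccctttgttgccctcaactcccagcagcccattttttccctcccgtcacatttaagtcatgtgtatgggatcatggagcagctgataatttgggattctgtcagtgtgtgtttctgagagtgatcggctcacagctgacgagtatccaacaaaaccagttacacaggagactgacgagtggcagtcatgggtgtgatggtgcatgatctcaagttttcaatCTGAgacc
SCARNA10, first 150 bases: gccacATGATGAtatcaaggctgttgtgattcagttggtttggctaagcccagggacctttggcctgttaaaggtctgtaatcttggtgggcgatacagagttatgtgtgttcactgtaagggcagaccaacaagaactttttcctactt
SCARNA10, last 150 bases: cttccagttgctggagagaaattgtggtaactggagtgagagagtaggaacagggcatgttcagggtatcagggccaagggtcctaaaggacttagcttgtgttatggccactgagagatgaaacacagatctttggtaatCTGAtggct
SCARNA12: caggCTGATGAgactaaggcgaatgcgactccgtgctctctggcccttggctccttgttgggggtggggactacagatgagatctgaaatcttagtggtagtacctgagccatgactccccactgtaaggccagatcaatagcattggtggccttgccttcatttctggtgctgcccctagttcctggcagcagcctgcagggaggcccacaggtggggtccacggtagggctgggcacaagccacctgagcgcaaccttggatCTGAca
The same C box was found in 5 of the 8 SCARNA transcripts of 250 or more bases (62.5%) and the D box in 7 of 8 (87.5%). No SNORA transcript above 0 held the C box, and 2 of 40 held the D box letters (5%). Among 288 SNORD transcripts, the box C/D class, 198 held the C box (68.8%) and 250 the D box (86.8%). Every one of the 8 long SCARNA transcripts also held TGAG at least once, the letters of the CAB box that retains an RNA in Cajal bodies, but so did 18 of the 40 SNORA transcripts above 0 (45%) and 252 of the 288 SNORD transcripts (87.5%). SCARNA6 and SCARNA5 were identical at 185 of 297 aligned columns (62.3%), and SCARNA10 and SCARNA12 at 185 of 347 (53.3%).

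SCARNA6 had 1116 FPKM in differentiated cells and 502 FPKM in undifferentiated cells. That is 2.22-fold higher, with a log2 fold change of 1.15 (SE 0.391) and q = 0.0151 in the authors' deposited table. It also stood above the median gene (adjusted p = 0.000223 by the normal test on the authors' statistic). The RNA lies within ATG16L1, a gene of autophagosome formation, whose row read 8.49 FPKM in differentiated and 10.7 FPKM in undifferentiated cells. The listed hg19 locus, chr2:234160217-234204320, spans that gene and is shared by 3 rows.

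SCARNA10, known as a guide for both ribose methylation and pseudouridylation of the U5 small nuclear RNA, had 1366 FPKM in differentiated cells and 786 FPKM in undifferentiated cells. Its log2 fold change was 0.80 (SE 0.303) with q = 0.0321 in the authors' deposited table, and its adjusted p against the median gene was 0.000128 by the normal test on the authors' statistic. The host is NCAPD2, a condensin subunit that works in mitotic chromosome packing. NCAPD2 went the other way, at 10.9 FPKM in differentiated and 30.3 FPKM in undifferentiated cells, a log2 fold change of -1.48 (SE 0.368) with q = 0.000624 in the authors' deposited table. The listed locus is chr12:6603298-6641132 and holds both rows.

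SCARNA12 was the most abundant of the 3, at 5713 FPKM in differentiated cells and 9077 FPKM in undifferentiated cells. Its log2 fold change was -0.67 (SE 0.258) with q = 0.0350 in the authors' deposited table. This fold lay at the median gene (adjusted p = 0.966 by the normal test on the authors' statistic), and with both groups scaled to an equal FPKM sum it was 0.11. Its host PHB2, prohibitin of the inner mitochondrial membrane, had 112 FPKM in differentiated and 164 FPKM in undifferentiated cells, a log2 fold change of -0.56 (SE 0.361) with q = 0.233 in the authors' deposited table. The SCARNA12 and PHB2 folds thus differed by -0.11, less than either SE.

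SCARNA5 had 256 FPKM in differentiated cells and 99.1 FPKM in undifferentiated cells, the most positive log2 fold change of any SCARNA row at 1.37 (SE 0.750). It did not pass the authors' test (q = 0.154 in the authors' deposited table) or the test against the median gene (adjusted p = 0.0698). SCARNA2, which carries only box C/D elements and guides methylation of U2 small nuclear RNA, was nearly level at 158 FPKM in differentiated and 146 FPKM in undifferentiated cells. Its log2 fold change was 0.11 (SE 0.288) with q = 0.804 in the authors' deposited table, and it had the smallest SE of the members at a locus of their own, chr1:109642815-109643234. SCARNA7 likewise had 68.7 FPKM in differentiated and 72.2 FPKM in undifferentiated cells, a log2 fold change of -0.07 (SE 0.758).

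Other long SCARNA rows read lower in differentiated cells without a call. SCARNA13 had 1300 FPKM in differentiated and 1698 FPKM in undifferentiated cells and was marked by the authors as having too little data to test. SCARNA17 had 15.5 FPKM in differentiated and 23.9 FPKM in undifferentiated cells. SCARNA9 had 7.59 FPKM in differentiated and 13.3 FPKM in undifferentiated cells, and SCARNA9L, a second row named after SCARNA9, had 6.72 FPKM in differentiated and 29.3 FPKM in undifferentiated cells. The SCARNA9L log2 fold change of -2.12 had an SE of 2.35, so it could not be told from 0.

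The 6 SCARNA rows under 200 nucleotides that were above 0 went either way with wide errors. SCARNA21 was the highest of all SCARNA rows, with 19223 FPKM in differentiated and 12889 FPKM in undifferentiated cells (log2 0.58, SE 5.35). SCARNA1 had 874 FPKM in differentiated and 402 FPKM in undifferentiated cells (log2 1.12, SE 8.31). SCARNA3 had 3181 FPKM in differentiated and 5184 FPKM in undifferentiated cells, and SCARNA22 had 6930 FPKM in differentiated and 10130 FPKM in undifferentiated cells. SCARNA16 had 84.9 FPKM in differentiated and 216 FPKM in undifferentiated cells (log2 -1.35, SE 5.06). SCARNA20 was listed at 0 in differentiated and at 2531 FPKM in undifferentiated cells. None of these 6 was called in the authors' deposited table.

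**Figure D1:**
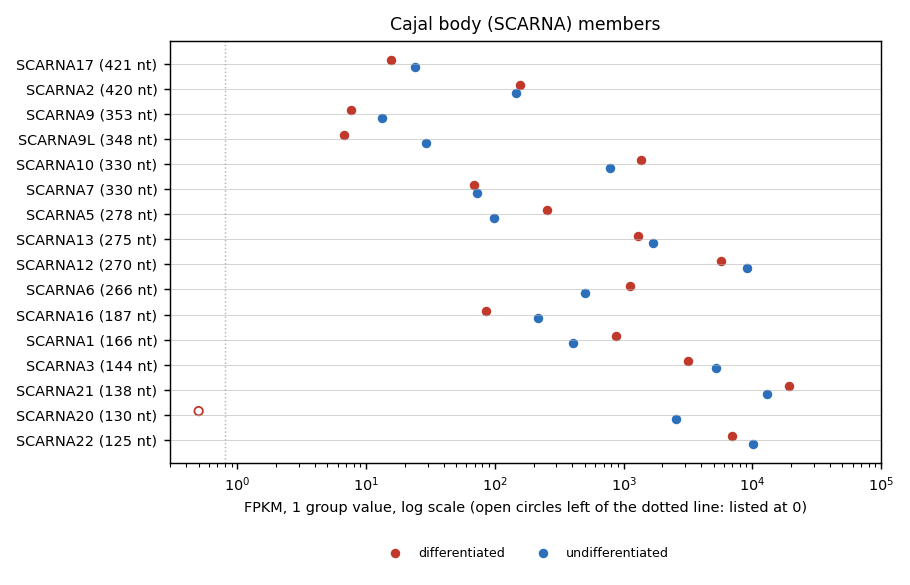
FPKM (log scale, 1 group value each) of the 16 SCARNA members, ordered by RefSeq length, in differentiated (red) and undifferentiated (blue) cells; open circles left of the dotted line stand for 0. SCARNA6 (1116 against 502 FPKM) and SCARNA10 (1366 against 786 FPKM) have their red point to the right, and SCARNA12 (5713 against 9077 FPKM) has it to the left.

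The SNORA rows carried most of the level but no call. SNORA rows summed to 232660 FPKM in differentiated and 252968 FPKM in undifferentiated cells, and SCARNA rows to 40300 FPKM in differentiated and 43798 FPKM in undifferentiated cells. Together the members made up 23.0% of the table's summed FPKM in differentiated cells and 14.5% in undifferentiated cells. FPKM divides by length, so this is not their share of fragments.

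SNORA76 was the highest member in undifferentiated cells, with 16143 FPKM in differentiated and 53495 FPKM in undifferentiated cells. Its log2 fold change of -1.73 had an SE of 1.46 (q = 0.380 in the authors' deposited table). SNORA8 was the highest in differentiated cells, with 23765 FPKM there and 19119 FPKM in undifferentiated cells (log2 0.31, SE 1.41). SNORA23 had the smallest error of any SNORA row, at 18490 FPKM in differentiated and 16520 FPKM in undifferentiated cells (log2 0.16, SE 0.686) and so differed by less than that error. SNORA22 read 17308 FPKM in differentiated and 18605 FPKM in undifferentiated cells, and SNORA49 had 12131 FPKM in differentiated and 28369 FPKM in undifferentiated cells. SNORA40 had 5976 FPKM in differentiated and 12836 FPKM in undifferentiated cells, and SNORA2A had 13157 FPKM in differentiated and 5546 FPKM in undifferentiated cells. None of these 4 was called in the authors' deposited table. All guide pseudouridylation, mainly of ribosomal RNA, by their class.

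The largest folds among members above 0 in both groups had wide errors. SNORA14B had 6413 FPKM in differentiated and 1842 FPKM in undifferentiated cells (log2 1.80, SE 20.7). SNORA27 had 9952 FPKM in differentiated and 3291 FPKM in undifferentiated cells (log2 1.60), and SNORA62 had 2243 FPKM in differentiated and 857 FPKM in undifferentiated cells (log2 1.39, SE 36.7). In the other direction SNORA30 had 2187 FPKM in differentiated and 10116 FPKM in undifferentiated cells (log2 -2.21, SE 11.1). These folds cannot be told from 0, and no direction is read from them.

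Over the 32 members above 0 in both groups, 16 were higher and 16 lower in differentiated cells, with a median log2 fold change of -0.02 and a range of -2.21 to 1.80. Over the 12750 tested rows above 0 in both groups the median was -0.58. The 17 SNORA rows had a median of 0.16 (10 higher and 7 lower) and the 15 SCARNA rows one of -0.39 (6 higher and 9 lower). Both medians move with the scaling of the groups: at an equal FPKM sum the SNORA median was 0.94 and the SCARNA median 0.40. In the test against the median gene, 31 members could enter, 2 of them (SCARNA6 and SCARNA10) stood above it and none below. Of all 11169 rows in that test 5.64% stood above and 4.56% below, so the members' count above is near the share of the table. At an unadjusted p below 0.05 the same test placed 4 members above and 0 below. The share of all rows at that cut is not given here, so no shift of the members is read from it.

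**Figure D2:**
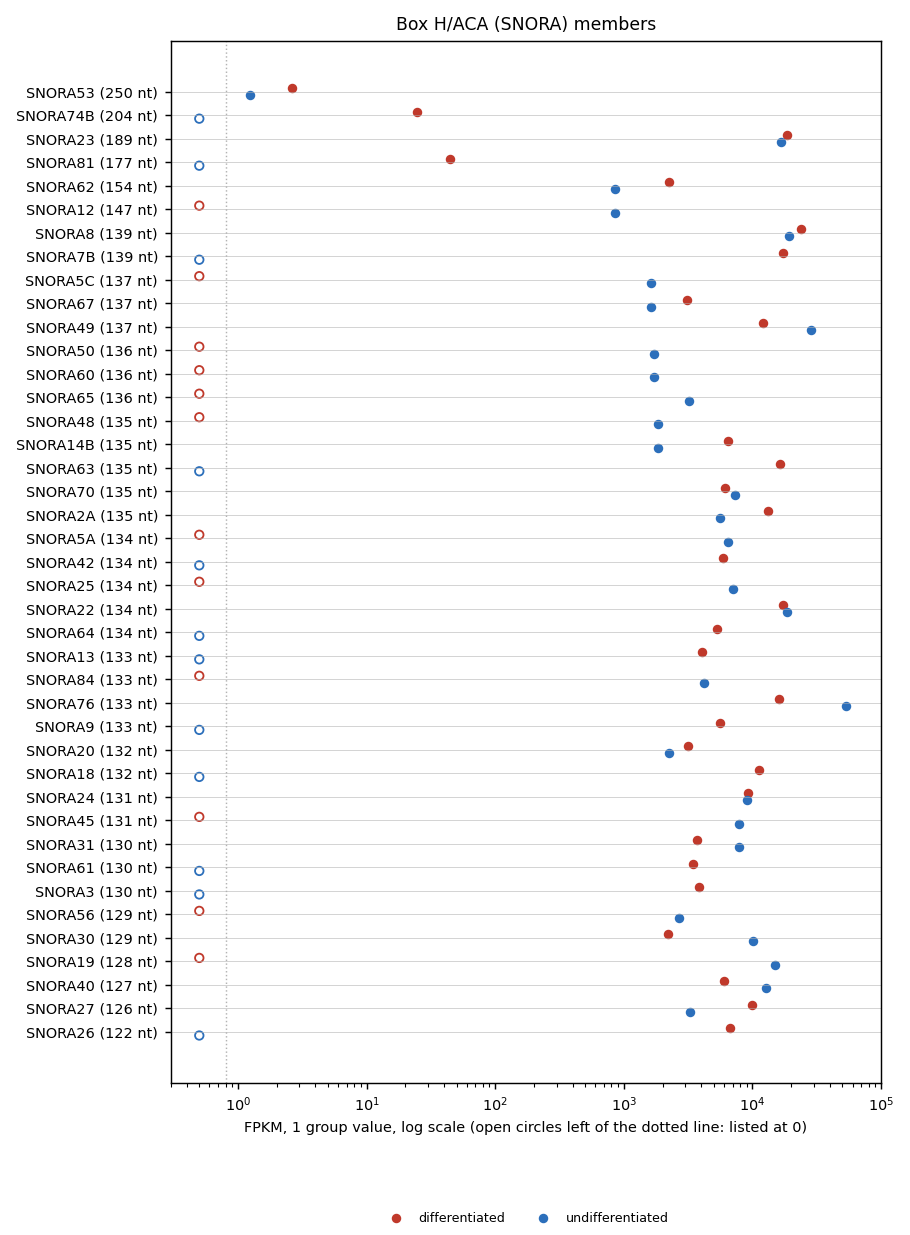
FPKM (log scale, 1 group value each) of the 41 SNORA members, ordered by RefSeq length, in differentiated (red) and undifferentiated (blue) cells; open circles left of the dotted line stand for 0. In 12 rows the undifferentiated value is 0 and in 12 the differentiated value is 0, while at 139 nucleotides or fewer no filled point lies under 1624 FPKM.

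Of the 57 members, 25 were listed at 0 in 1 group. All 12 with a value only in differentiated cells were SNORA rows, at 24.5 to 17255 FPKM (median 5462), and the 13 with a value only in undifferentiated cells were 12 SNORA rows and SCARNA20, at 852 to 14906 FPKM (median 2700). None was called, with q of 0.286 to 0.633 in the authors' deposited table. A listed 0 has no floor here, so no fold is given for these rows. The highest of these rows were SNORA7B (17255 FPKM in differentiated and 0 in undifferentiated cells), SNORA63 (16310 FPKM in differentiated and 0 FPKM in undifferentiated cells) and, the other way, SNORA19 (0 in differentiated and 14906 FPKM in undifferentiated cells).

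Copies of a sequence are one limit on such rows. SNORA7B and SNORA7A are printed because they differ at very few bases, and a fragment may fit both. Capitals mark the ACA box exactly 3 bases from the 3′ end.
SNORA7B: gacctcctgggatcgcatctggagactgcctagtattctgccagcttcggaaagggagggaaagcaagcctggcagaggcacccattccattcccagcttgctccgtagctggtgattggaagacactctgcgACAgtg
SNORA7A: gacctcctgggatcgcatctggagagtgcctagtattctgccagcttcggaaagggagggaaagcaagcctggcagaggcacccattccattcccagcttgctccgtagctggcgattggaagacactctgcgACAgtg
They were identical at 137 of 139 aligned columns (98.6%), and SNORA7A was listed at 0 in both groups and marked as having too little data. SNORA14B and SNORA14A, which was at 0 in both groups, were identical at 91.1% of aligned columns, and SNORA5A and SNORA5B, also at 0 in both, at 89.6%. SNORA2A and SNORA2B, at 0 in both groups, were less alike (76.1%). How the authors assigned fragments that fit several copies is not given in the sources used here, so the values of SNORA7B, SNORA14B and SNORA5A are uncertain.

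Of the 6 host genes with at least 2 members above 0, 3 held members that were not above 0 in the same groups and 3 held members of 1 pattern. TAF1D, a subunit of the RNA polymerase I selectivity factor, hosts 6 of the 129 rows. The 4 of them above 0 each have a locus of their own on chromosome 11, between 93463681 and 93468402 (hg19). SNORA8, SNORA25 and SNORA40 are printed because they lie close together in the same host. Capitals mark the ACA box exactly 3 bases from the 3′ end, which the search did not find in SNORA25 or SNORA40.
SNORA8: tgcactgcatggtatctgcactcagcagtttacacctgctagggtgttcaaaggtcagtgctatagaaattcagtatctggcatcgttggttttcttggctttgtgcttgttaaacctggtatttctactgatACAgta
SNORA25: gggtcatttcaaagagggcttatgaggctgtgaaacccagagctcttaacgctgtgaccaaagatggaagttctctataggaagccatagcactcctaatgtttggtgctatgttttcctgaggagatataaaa
SNORA40: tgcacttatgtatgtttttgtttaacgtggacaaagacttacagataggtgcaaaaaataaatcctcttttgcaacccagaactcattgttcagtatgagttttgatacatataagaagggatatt
SNORA8 (23765 FPKM in differentiated and 19119 FPKM in undifferentiated cells) and SNORA40 (5976 FPKM in differentiated and 12836 FPKM in undifferentiated cells) were above 0 in both groups. SNORA18 had 11326 FPKM in differentiated cells and 0 in undifferentiated cells. SNORA25 had 0 in differentiated cells and 7113 FPKM in undifferentiated cells. SNORA1 and SNORA32, from the same host, were at 0 in both. TAF1D itself had 15.4 FPKM in differentiated and 22.2 FPKM in undifferentiated cells, with q = 0.162 in the authors' deposited table.

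RPL27A and EIF4A1 also held members of unlike pattern. In RPL27A, a gene of the large ribosomal subunit, SNORA3 had 3870 FPKM in differentiated and 0 in undifferentiated cells, while SNORA45 had 0 in differentiated and 7926 FPKM in undifferentiated cells. In the translation factor gene EIF4A1, SNORA67 had 3081 FPKM in differentiated and 1624 FPKM in undifferentiated cells, and SNORA48 had 0 in differentiated and 1842 FPKM in undifferentiated cells. In the other hosts of that count, the members above 0 were so in the same groups. SCARNA5 and SCARNA6 of ATG16L1 were above 0 in both groups, but so were 15 of the 16 SCARNA rows above 0 in either. In TBRG4, SNORA5A (0 FPKM in differentiated and 6414 FPKM in undifferentiated cells) and SNORA5C (0 FPKM in differentiated and 1625 FPKM in undifferentiated cells) had no value in differentiated cells. SNORA5B of the same host was at 0 in both. In EIF4A2, SNORA63 (16310 FPKM in differentiated and 0 FPKM in undifferentiated cells) and SNORA81 (44.4 FPKM in differentiated and 0 FPKM in undifferentiated cells) had none in undifferentiated cells, and SNORA4 was at 0 in both. EIF4A2 was the only host called higher, at 143 FPKM in differentiated and 97.1 FPKM in undifferentiated cells (log2 0.56, SE 0.227, q = 0.0460 in the authors' deposited table).

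The shortest and the longest rows differed in how many were above 0 and how many were called. RefSeq lengths, which are spans of a gene on the genome, were found for 129 of 129 rows. Of the 104 rows of 100 to 140 nucleotides, 38 were above 0, of which 16 had a value in both groups and 22 in 1 group, and none of the 38 tested was called. Of the 11 rows of 250 to 500 nucleotides, all 11 were above 0 in both groups, 10 were tested and 3 were called. Over all tested rows 30.4% were called. Of 41 other tested rows with a gene span of 250 to 500 nucleotides 33 were called in either direction, with a median SE of 0.270. A span includes introns, so these 41 rows are compact genes of any kind and not a background matched to the members. The implied SE had a median of 8.56 in the short class and 0.656 in the long class, where it ranged from 0.258 to 14.1. The 14.1 belonged to SNORA53, the longest SNORA row above 0, at 2.63 FPKM in differentiated and 1.25 FPKM in undifferentiated cells. SCARNA rows above 0 had a median length of 272.5 nucleotides, and the 8 SCARNA rows at 0 had one of 130.5. Among SNORA rows length did not separate the rows above 0 (median 134 nucleotides) from those at 0 (median 133.5).

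Some rows over 140 nucleotides had values below any seen at 140 or fewer. In undifferentiated cells the lowest value above 0 among rows of 1 length was 1624 to 19119 FPKM for lengths of 125 to 139 nucleotides. It was 852 FPKM at 147, 857 at 154, 402 at 166 and 216 at 187 nucleotides, but 5184 at 144 and 16520 at 189. Between 100 and 140 nucleotides no row lay between 0 and 2187 FPKM in differentiated cells, or between 0 and 1624 FPKM in undifferentiated cells. Some rows of equal length held the same value. SNORA14B and SNORA48, both of 135 nucleotides, each had 1842 FPKM in undifferentiated cells, and SNORA50 and SNORA60, both of 136, each had 1730 FPKM there, while SNORA48, SNORA50 and SNORA60 were at 0 in differentiated cells. No value was shared in differentiated cells. The part of length in the calls was not tested.

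**Figure D3:**
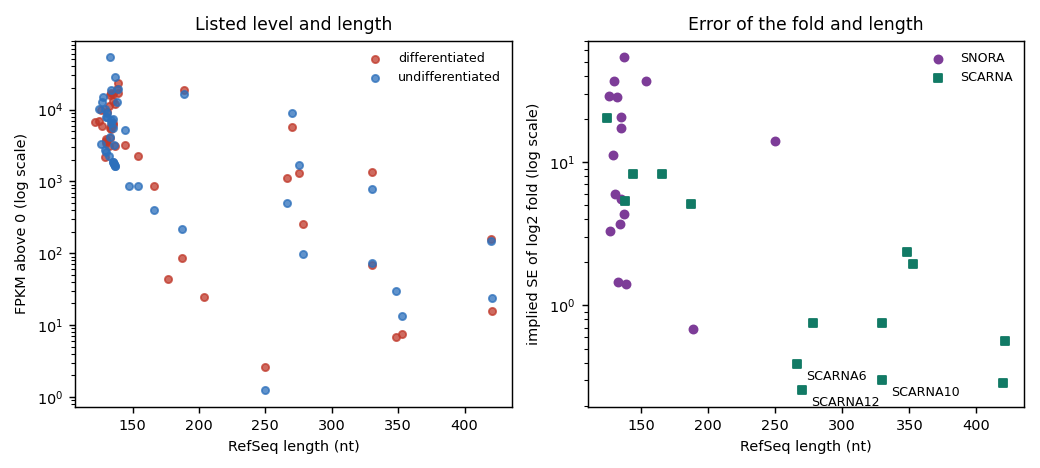
Left, FPKM above 0 (log scale) of the members against RefSeq length in nucleotides, in differentiated (red) and undifferentiated (blue) cells; right, implied SE of the log2 fold change (log scale) against length for SNORA (circles) and SCARNA (squares) rows. The called SCARNA6, SCARNA10 and SCARNA12 are labelled and have SEs of 0.391, 0.303 and 0.258, among the lowest of all members.

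Box C/D RNAs are shorter still. Of 251 SNORD rows, with a median length of 78 nucleotides, 6 were above 0 (2.39%), against 44.2% of the SNORA and SCARNA rows. Those 6 had 109 to 237 nucleotides, and none was called. The ACA box did not go with being listed above 0. It was found exactly 3 bases from the 3′ end in 31 of 40 SNORA transcripts above 0 (77.5%) and in 46 of 62 at 0 (74.2%), against 4 of 288 SNORD transcripts (1.39%).

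Set beside their hosts, more members had a listed fold above the host's than below it, but with wide errors. For 52 members a gene of the table holds them on the same strand in GENCODE release 29, which gave 44 distinct hosts. Of these hosts 21 were called lower in differentiated cells and 1 higher, where 28% and 2.43% of all tested rows were, and their median log2 fold change was -0.75 (range -1.73 to 0.56). At an equal FPKM sum, which adds 0.78 to every fold, of hosts and members alike, the hosts' median was 0.03. Among 28 members with a fold for both, 21 had a higher log2 fold change than the host and 7 a lower one, with a median difference of 0.85, which was 0.50 with quantile normalization. The median SE of the members was 5.06, so no direction is read from this count. Only SCARNA6 and SCARNA10 among the members passed a test against the median gene. Hosts that were called lower around members named above include CHD3 (5.13 FPKM in differentiated and 14.0 FPKM in undifferentiated cells), a chromatin remodeller around SCARNA21, and IPO7 (22.4 FPKM in differentiated and 44.5 FPKM in undifferentiated cells), an import receptor around SNORA23. TOMM20 (77.0 FPKM in differentiated and 128 FPKM in undifferentiated cells), a mitochondrial import receptor around SNORA14B, and RPSA (876 FPKM in differentiated and 1472 FPKM in undifferentiated cells), a ribosomal protein gene around SNORA62, were also called lower, with q of 0.00595 and 0.00297 in the authors' deposited table, but their folds turned just above 0 (0.054 and 0.034) at an equal FPKM sum. Further hosts were called lower around SNORA30 (SRCAP, 2.07 FPKM in differentiated and 3.96 FPKM in undifferentiated cells), and not called around SNORA2A (KANSL2, 6.27 FPKM in differentiated and 10.4 FPKM in undifferentiated cells), SNORA27 (RPL21, 178 FPKM in differentiated and 430 FPKM in undifferentiated cells), SNORA49 (EP400, 1.24 FPKM in differentiated and 2.09 FPKM in undifferentiated cells), SNORA22 (CCT6P1, 2.79 FPKM in differentiated and 3.58 FPKM in undifferentiated cells) and SCARNA16 (LINC00338, 1.32 FPKM in differentiated and 2.51 FPKM in undifferentiated cells). Of the members, 50 of 57 share a listed locus with another row, so fragments of host and member may not be told apart there.

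**Figure D4:**
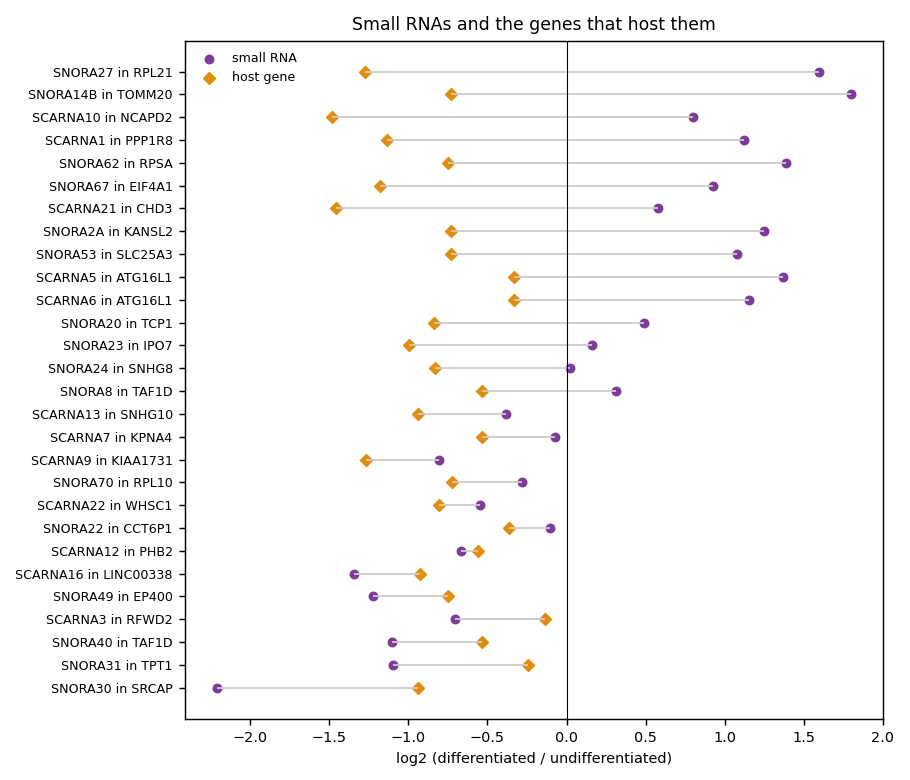
Log2 fold change (differentiated over undifferentiated) of the 28 members above 0 in both groups (circles) and of their host genes (diamonds), from the authors' deposited table, ordered by the difference. In 21 of 28 pairs the circle lies to the right of the diamond, and every diamond lies below 0. Errors are not drawn, and the median SE of the members was 5.06.

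The protein genes of the H/ACA pathway read lower in differentiated cells, as the table did at large. The counts of each list stand against 28% of all tested rows called lower, 2.43% called higher and 4.56% below the median gene. DKC1, the pseudouridine synthase itself, had 11.5 FPKM in differentiated cells and 38.3 FPKM in undifferentiated cells. Its log2 fold change was -1.73 (SE 0.276) with q = 2.44e-08 in the authors' deposited table, and it also stood below the median gene (adjusted p = 0.00148 by the normal test on the authors' statistic). NHP2, which binds the RNA's hairpins, had 77.9 FPKM in differentiated and 135 FPKM in undifferentiated cells (log2 -0.79, SE 0.266, q = 0.0144 in the authors' deposited table). NOP10 (269 FPKM in differentiated and 365 FPKM in undifferentiated cells, q = 0.172) and GAR1 (2.05 FPKM in differentiated and 3.93 FPKM in undifferentiated cells, q = 0.207) were not called in the authors' deposited table. The core proteins were thus lower in 2 of 4, with a median log2 fold change of -0.86. SNORA56, a guide RNA within DKC1, had 0 in differentiated and 2700 FPKM in undifferentiated cells, without a call.

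Of 10 tested assembly factors 6 were called lower and none higher in the authors' deposited table (median log2 -0.91), and 1 stood below the median gene. They include RUVBL1 (36.9 FPKM in differentiated and 91.9 FPKM in undifferentiated cells) and RUVBL2 (139 FPKM in differentiated and 270 FPKM in undifferentiated cells), the ATPases that load core proteins. SHQ1, the chaperone that holds dyskerin before assembly, had 7.95 FPKM in differentiated and 16.5 FPKM in undifferentiated cells, and NOLC1, a nucleolar and Cajal body protein that binds the finished particle, had 40.4 FPKM in differentiated and 75.7 FPKM in undifferentiated cells. TCOF1 (10.6 FPKM in differentiated and 23.1 FPKM in undifferentiated cells) was marked as failed by the authors and has no test. The list also holds NUFIP1, ZNHIT6 and ZNHIT3, known mainly as factors of box C/D particles. NUFIP1 (q = 0.0197) and ZNHIT6 (q = 0.0446) are among the 6 called lower in the authors' deposited table, so the count is not of H/ACA factors alone.

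Of 20 tested genes of Cajal bodies and small RNA transport 12 were called lower and none higher in the authors' deposited table (median log2 -0.98), with 2 below the median gene. TGS1, which trimethylates the caps of small nuclear RNAs, had 8.82 FPKM in differentiated and 24.2 FPKM in undifferentiated cells, and DDX20, a helicase of the SMN complex, had 5.91 FPKM in differentiated and 17.7 FPKM in undifferentiated cells. Both stood below the median gene (adjusted p = 0.0442 and 0.0421 by the normal test on the authors' statistic). SART3 (14.1 FPKM in differentiated and 32.1 FPKM in undifferentiated cells), which recycles the spliceosomal small nuclear RNAs, and GEMIN5 (3.53 FPKM in differentiated and 8.90 FPKM in undifferentiated cells), which recognises small nuclear RNA, were called lower, and so was COIL (10.1 FPKM in differentiated and 18.8 FPKM in undifferentiated cells), the scaffold protein of Cajal bodies. WRAP53, which binds the CAB box and brings SCARNA RNAs to Cajal bodies, read 1.86 FPKM in differentiated and 3.73 FPKM in undifferentiated cells and was not called (q = 0.414 in the authors' deposited table).

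Of 22 tested genes for trimming and decay of RNA, chiefly at 3′ ends, 15 were called lower and none higher in the authors' deposited table (median log2 -0.997). XRN2, which works from the 5′ end, is counted among the 15. EXOSC2, an exosome subunit, stood below the median gene, with 6.86 FPKM in differentiated and 21.9 FPKM in undifferentiated cells. EXOSC10 (23.4 FPKM in differentiated and 45.4 FPKM in undifferentiated cells), the nuclear exosome's exonuclease, SKIV2L2 (14.2 FPKM in differentiated and 32.2 FPKM in undifferentiated cells), its helicase, and XRN2 (47.4 FPKM in differentiated and 94.4 FPKM in undifferentiated cells), a 5′ exonuclease, were called lower as well, and PARN, which trims H/ACA RNA ends, had 11.6 FPKM in differentiated and 19.2 FPKM in undifferentiated cells (q = 0.0445 in the authors' deposited table). Pseudouridine synthases that work without a guide RNA were called lower in 7 of 12, none higher, with a median log2 of -0.87. PUS7 had 10.5 FPKM in differentiated and 34.3 FPKM in undifferentiated cells (log2 -1.71, SE 0.271, q = 2.26e-08 in the authors' deposited table) and stood below the median gene, and PUS7L (5.18 FPKM in differentiated and 10.8 FPKM in undifferentiated cells), TRUB2 (12.6 FPKM in differentiated and 24.3 FPKM in undifferentiated cells) and RPUSD1 (1.76 FPKM in differentiated and 5.08 FPKM in undifferentiated cells) were called lower too. At an equal FPKM sum the medians of these protein gene lists stayed below 0 but moved close to it, at -0.08 for core proteins, -0.13 for assembly factors, -0.20 for Cajal body genes, -0.21 for 3′ trimming genes and -0.09 for the stand-alone synthases.

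**Figure D5:**
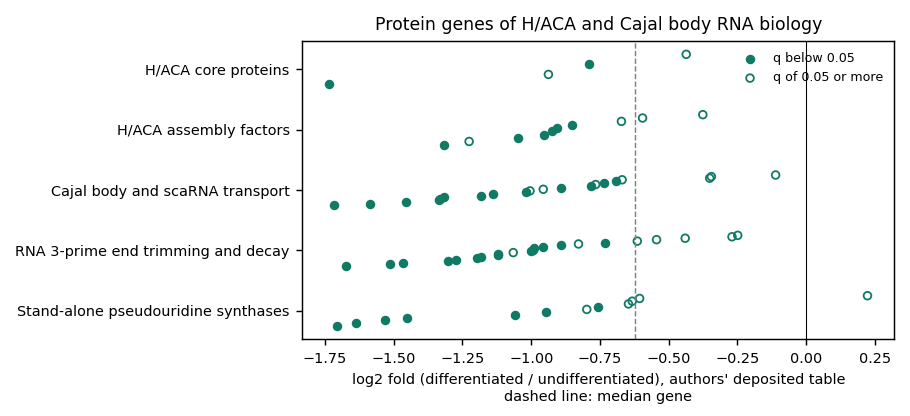
Log2 fold change (differentiated over undifferentiated) of the tested genes of 5 protein gene lists, from the authors' deposited table; filled points have q below 0.05, and the dashed line is the median gene at -0.62. All filled points lie left of the dashed line, with DKC1 leftmost among the core proteins at -1.73.

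Box C/D core proteins, the partner class, were called lower in 3 of 4 (median log2 -1.20), and 2 of them stood below the median gene; at an equal FPKM sum their median was -0.42. NOP56 had 27.3 FPKM in differentiated and 87.6 FPKM in undifferentiated cells, NOP58 had 12.5 FPKM in differentiated and 33.9 FPKM in undifferentiated cells, and the methyltransferase FBL had 17.3 FPKM in differentiated and 33.6 FPKM in undifferentiated cells. Other structured RNAs that are not hosted in introns were listed beside the members. TERC, the telomerase RNA, is itself an H/ACA RNA with a CAB box, and it had 53.1 FPKM in differentiated and 68.8 FPKM in undifferentiated cells (log2 -0.38, SE 0.371, q = 0.465 in the authors' deposited table). RMRP, the RNA of RNase MRP, was called lower, at 61298 FPKM in differentiated and 93949 FPKM in undifferentiated cells (log2 -0.62, SE 0.232, q = 0.0305 in the authors' deposited table), at the median gene and above 0 at an equal FPKM sum (0.17). RPPH1, the RNA of RNase P, had 6368 FPKM in differentiated and 4956 FPKM in undifferentiated cells (log2 0.36, SE 0.1997, q = 0.157 in the authors' deposited table) and stood above the median gene (adjusted p = 4.47e-05 by the normal test on the authors' statistic), as SCARNA6 and SCARNA10 did.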

How the data were processed

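RNA was sequenced in 4 libraries, 2 of differentiated and 2 of undifferentiated SH-SY5Y cells. Reads were processed with Cufflinks 2.0.2 and TopHat2 2.0.8 on build hg19, per the submitters' processing notes. Per the file headers, the deposited table has for each row an FPKM of either group, the p-value and q-value of the authors' test, its statistic and a log2 fold change. The annotation and the way libraries were combined and scaled are not given in the sources. The table holds no counts, so depth is unknown and no interval or floor is given.

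A limma test on library values had been planned. The table holds group values only, so the authors' q-values over all 12810 tested rows (call: q below 0.05) took its place. The implied SE is the size of the log2 fold change over that of the statistic. For the test against the median gene, each fold less the median of 11169 rows with a mean of at least 1 FPKM was divided by its SE, and two-sided normal p-values were adjusted by Benjamini-Hochberg over those rows. This keeps the authors' variance model. It was also run on simulated folds drawn with the same implied SEs, which cannot show whether those SEs are right. Loci are hg19 as listed, with starts raised by 1.

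The members and all gene lists were chosen with earlier results of these data known. Named were all SCARNA rows, called members, the 8 most abundant, the 5 largest rises and falls, their hosts and name families, and up to 4 called genes a list, or the 2 most abundant. Other members, and genes such as ISL1, HAND2, LUM, ACTA2, SNAPC1, SNAPC2, COIL, WRAP53, PARN, NOP10, GAR1, TERC and RPPH1, were named after their values were seen. A few items are not reported here. Lengths are gene spans from RefSeq, and sequences and hosts came from GENCODE release 29, for 123 of the 129 rows. Python 3.11.15, pandas 2.3.3, scipy 1.17.1, biopython 1.88 and matplotlib 3.10.9 were used. Alternatives covered the threshold, the filter on low values, the pseudocount, the scaling, tested rows and shared loci.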

Additional observations from a re-analysis of the deposited data

How the results depend on the processing

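No paired analysis was possible because the table holds 1 value per group; for the same reason no library could be left out. With a threshold of 0.01, 0 members were called higher and 0 lower, in place of 2 and 1. The 2 members above the median gene became 4 at an equal FPKM sum tested against 0, with SCARNA2 (adjusted p = 0.0229, normal test) and SCARNA5 (0.0414) added. They became 3 with a mean of at least 5 FPKM and stayed at 2 under the others. SCARNA6 and SCARNA10 were among them at 5 FPKM, under both scalings and at 0.01. Scaling to an equal FPKM sum adds 0.78 to each log2 fold, and 0.69 without small RNA rows. The members' median log2 became 0.76 and 0.66 under these scalings, the SCARNA median 0.40 and 0.30 (0.14 with quantile normalization), and the SNORA median 0.94 and 0.85. Over members alone at their locus the median was -0.62 for all 5, -1.10 for 3 SNORA rows, and the median difference from hosts was 0.14 for 2 members. The cause was not tested. Among genes named by rule with a call, the folds of SCARNA12, RMRP, TOMM20 and RPSA changed sign or reached 0. SCARNA12 was 0.11 at an equal sum and 0.020 without small RNA rows. RMRP was 0.17, 0.072 and, with quantile normalization, 0. TOMM20 was 0.054, and 0.0045 with quantile normalization, and RPSA was 0.034 and 0.14. HAND2 and PARN, called lower but named after their values were seen, were not in that check. Their log2 folds of -0.58 and -0.73 are smaller in size than the 0.78 added at an equal sum. Both therefore also turn above 0 there, and HAND2 does so with the 0.69 added without small RNA rows. With pseudocounts of 0.1, 1 or 3, also with members at 0 in 1 group included (chosen after seeing the data), no median moved by more than the median SE of 0.362. At a threshold of 0.01 the genes called lower were 1 of the core proteins, 4 assembly factors, 7 of Cajal bodies, 8 of 3′ trimming, 1 stand-alone synthase, 2 box C/D core proteins, 4 of snRNA transcription, 0 other structured RNAs, 1 SNHG host, 5 sympathoadrenal and 2 mesenchymal markers. The share of all tested rows called at 0.01 is not given here. Neither these counts nor those of the members at 0.01 are therefore read against the whole table. When genes under a mean of 5 FPKM were left out, the lower calls whose number changed by over 1.5 times were those of stand-alone synthases (4) and mesenchymal markers (1). Depth is unknown. Of 104 rows of 140 nucleotides or fewer only 16 have an SE, with a median of 8.56.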

Other observations

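SCARNA RNAs act on the small nuclear RNAs. The SNAPc complex binds the promoters of small nuclear RNA genes, and the Integrator complex processes many of their transcripts. Of 17 tested genes of these complexes 8, all of Integrator, were called lower and none higher in the authors' deposited table (median log2 -0.78), where 28% of all tested rows were called lower, and none stood apart from the median gene. At an equal FPKM sum that median was -0.00071. SNAPC2, a SNAPc subunit, read 5.03 FPKM in differentiated and 2.28 FPKM in undifferentiated cells (log2 1.14, SE 0.659) without a call, and SNAPC1 read 8.33 FPKM in differentiated and 8.40 FPKM in undifferentiated cells. INTS3 had 5.22 FPKM in differentiated and 11.9 FPKM in undifferentiated cells, INTS2 had 4.71 FPKM in differentiated and 10.2 FPKM in undifferentiated cells, INTS9 had 3.42 FPKM in differentiated and 9.76 FPKM in undifferentiated cells and INTS8 had 8.70 FPKM in differentiated and 17.1 FPKM in undifferentiated cells. The small nuclear RNAs that the table lists were mostly of the minor spliceosome. RNU11 had 83046 FPKM in differentiated and 101936 FPKM in undifferentiated cells (log2 -0.30, SE 1.03), and RNU6ATAC was listed at 43704 FPKM in differentiated and at 0 in undifferentiated cells, neither of them called. A list of 18 host genes of small nucleolar RNAs held mostly noncoding genes, with TAF1D, a protein gene, among them. Of these 18, 2 were called lower, a share under the 28% of all tested rows, and none higher (median log2 -0.73, and 0.06 at an equal FPKM sum). The 2 were SNHG16 (84.0 FPKM in differentiated and 177 FPKM in undifferentiated cells) and SNHG1 (11.1 FPKM in differentiated and 23.5 FPKM in undifferentiated cells).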
